A study of Xenopus laevis with 46 samples.

Results

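The start of DNA replication depends on a small group of proteins that turn a loaded helicase into a moving fork, and 4 of the 5 genes described here encode such proteins: topbp1, ticrr, recql4 and dbf4b. The other gene, chek1, encodes the checkpoint kinase Chk1. The genes were chosen by name, as every entry of the deposited table called topbp1, recql4, ticrr, dbf4b or chek1 followed by .L or .S, the 2 subgenomes of the allotetraploid frog Xenopus laevis. The rule found 7 entries of 49233 distinct gene names: topbp1.L, ticrr.L, ticrr.S, recql4.L, dbf4b.L, chek1.L and chek1.S. NCBI RefSeq's gene table for this frog (assembly v10.1) held 6 of the 7 names, all but recql4.L. It lists Cut5 among the other names of topbp1.L, and both dbf4 and Drf1 among those of dbf4b.L.

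Early frog embryos divide in fast, synchronous cycles without gap phases and rely on RNA and protein stored in the egg. At the midblastula transition the cycles lengthen and the embryo's own genes are switched on. As background, overexpression of Cut5, RecQ4, Treslin and Drf1 together is known to keep Xenopus embryos in fast cycles past this stage, which led to the view that these factors become limiting as nuclei multiply. Chk1 is known to be active for a short time at the same stage, when it marks the phosphatase Cdc25A for destruction and so slows entry into mitosis.

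The study measured captured, newly made RNA in wildtype blastulae. Every embryo, in every group, was injected at the 1-cell stage with 10 nl of 50 mM 5-ethynyl uridine (EU), a uridine analog that is built into growing RNA, and was kept near 22 °C. The animal pole (AP), which forms mainly ectoderm, and the vegetal pole (VP), the yolky side that forms mainly endoderm, were cut out hourly from 5 to 9 hours post fertilisation (hpf), and RNA carrying EU was linked to biotin and pulled down. Experiment 1 held 3 clutches at 5 times, with 30 libraries in 10 groups of 3, and experiment 2 held 1 clutch at 6 to 9 hpf, with 2 technical replicates in each of 8 groups. No library without EU or of total RNA was used here, so RNA made in the embryo and stored RNA carried through the pulldown cannot be told apart, and in dissected tissue fewer expressing cells and less RNA per cell cannot be told apart either.

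All values are normalized read counts as the authors deposited them. Library totals lay between 1783721 and 3273514, but the number of genes above 0 ran from 4137 to 21140, and in 10 libraries the low values were spaced as if 1 read were worth 2.18 to 11.96. Those spacings correspond to between 232927 and 998045 reads, and the depth in reads of the other 36 libraries could not be read from the values. Markers of the dissection were read as sums of normalized read counts. The summed level of 12 entries for RNAs stored in the vegetal pole was 1395 to 1972 in the 3 AP libraries at 5 hpf and 11378 to 14326 in the 3 VP libraries, although gdf1.S was at 0 throughout. Against its list, dand5.S at 5 hpf read 315, 628 and 271 in AP against 63, 88 and 0 in VP. dand5.L, at 413, 713 and 304 in AP and 280, 268 and 330 in VP, was not higher in VP either. At 9 hpf, 13 entries for genes switched on in the vegetal pole summed to 15039 to 37797 in VP and 773 to 3185 in AP. Those for the animal pole, 10 entries, summed to 3973 to 17795 in AP and 2993 to 3910 in VP. Single entries could overlap: the lowest AP value was 1176 for foxi4.2.S and 838 for grhl3.L, under the highest VP values of 1590 and 994. tfap2a.S did not overlap, with 273 as its lowest in AP and 102 as its highest in VP, nor did krt70.S and cdh1.S. tfap2a.L did, with 475 as its lowest in AP and 497 as its highest in VP, and so did foxi4.2.L (632 and 1139) and grhl3.S (446 and 493). In the vegetal list sox17b.1.L overlapped, with 1311 as its highest in AP and 1221 as its lowest in VP. So did gata6.L, with 0, 0 and 3 in AP and 357, 0 and 98 in VP. nodal5.L read 0, 0 and 0 in AP and 441, 238 and 0 in VP. Of the animal pole entries, krt70.L read only 0, 1 and 0 in AP and 0 throughout VP at 9 hpf. cdh1.L was at 0 in both regions at that time. Among the first genes switched on, 8 entries summed to 267 to 341 in AP at 5 hpf and 9296 to 45547 at 9 hpf, and to 121 to 357 and 15582 to 21490 in VP. The egg coat genes, which the blastula does not transcribe, still summed to 592 to 1212 in AP and 975 to 1999 in VP at 5 hpf over 6 entries, and to 303 to 751 and 296 to 813 at 9 hpf.

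All 7 entries passed the filter on low values, under which a gene had to reach 10 in 3 or more libraries of experiment 1, and which left 19896 genes. Each was read before the main rise of zygotic RNA. At 5 hpf, 5 of the 7 were above 0 in all 6 libraries and 7 of 7 in at least 3, against 3852 of 19896 tested genes above 0 in all 6. Their mean over the 30 libraries of experiment 1 was 126 for topbp1.L, 376 for ticrr.L, 189 for ticrr.S, 226 for recql4.L, 308 for dbf4b.L, 121 for chek1.L and 138 for chek1.S. These means lay above those of 74.9% to 94.8% of the tested genes, but they are not corrected for transcript length, so they are not compared with each other.

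None of the 7 entries passed the test for a change between regions or over time. The fitted differences with the smallest p-values were all toward lower values later. The test was limma's moderated test on log2(value + 1) over experiment 1, with Benjamini-Hochberg adjustment over all 19896 genes and a threshold of 0.05. In 22 contrasts, limma called 0 of 154 tests of the 7 entries, with 7 at an unadjusted p under 0.05, and in all 7 the value was lower later. Of all tested genes, 2.43% to 14.3% per contrast were at that unadjusted p in either direction, and 7 of 154 lies within that range. Shares of all genes for lower values alone are given below. The 7 tests are not separate results: they are of topbp1.L, chek1.S, ticrr.L and recql4.L, with topbp1.L and chek1.S repeated in overlapping contrasts. The smallest adjusted p was 0.147. The summed value of the 7 entries was 1498 to 3935 in the AP libraries at 5 hpf and 767 to 811 at 9 hpf, and in VP it was 1719 to 2217 and 605 to 1705. The nearest libraries of the 2 times were thus 811 and 1498 in AP and 1705 and 1719 in VP. Sums of other genes were not compared, so these gaps have no share of all genes beside them. Taken singly, only topbp1.L in VP and topbp1.L, recql4.L and ticrr.L in AP lay apart in this way. The shares of all genes for single entries are given below.

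**Figure D1:**
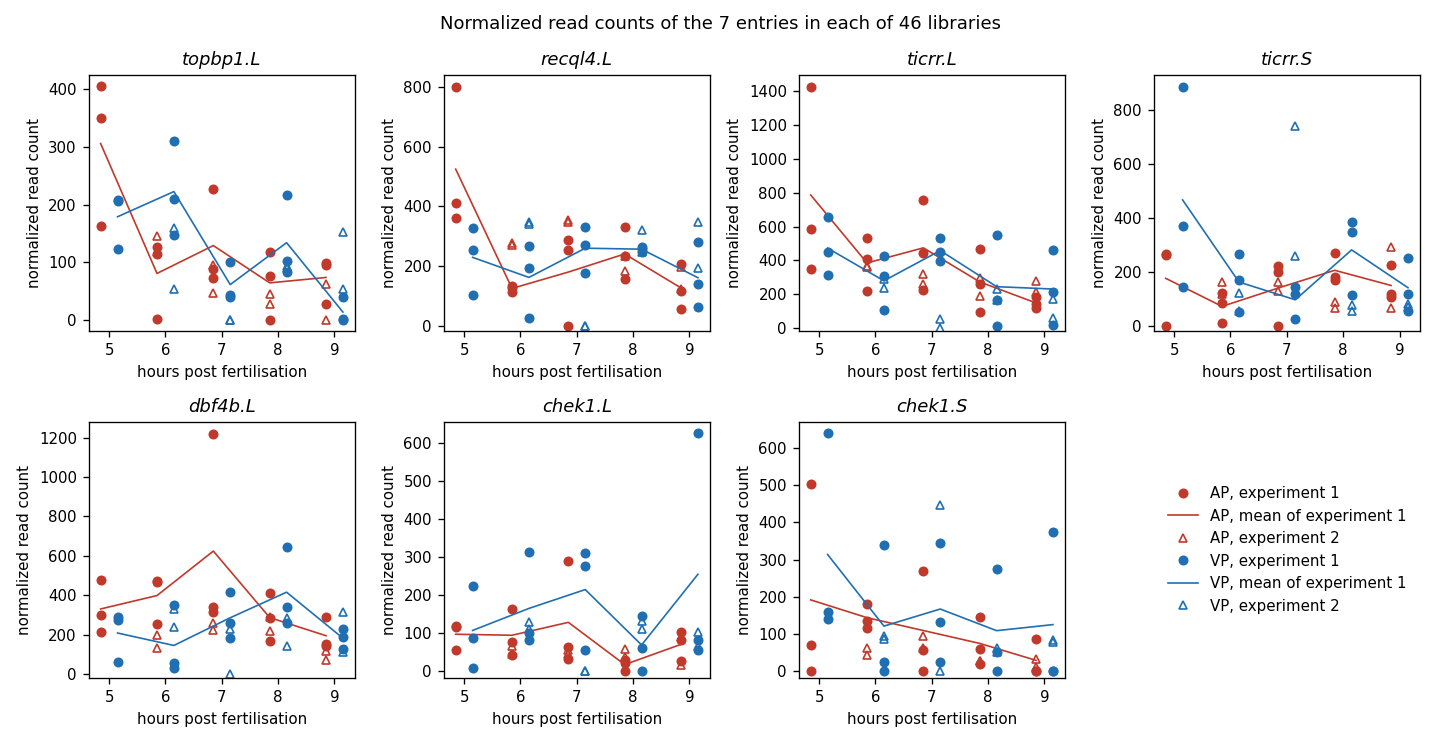
Normalized read counts (vertical axis, linear, with its own range in each panel) of the 7 entries against hours post fertilisation, with 1 point per library, filled circles for experiment 1 (n = 3 clutches per group), open triangles for experiment 2 and lines through the means of experiment 1. In AP the points of topbp1.L, recql4.L and ticrr.L at 9 hpf all lie under those at 5 hpf, and single libraries far from their group are seen for ticrr.L (1427), dbf4b.L (1220) and chek1.L (625).

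topbp1 encodes TopBP1 (Cut5), a scaffold that binds Treslin and, at stalled forks, activates the kinase ATR. Replicates 1, 2 and 3 of AP read 163, 350 and 405 for topbp1.L at 5 hpf, 127, 114 and 1 (6 hpf), 227, 72 and 88 (7 hpf), 117, 0 and 76 (8 hpf), and 95, 99 and 27 (9 hpf). In VP it read 208, 123 and 206 (5 hpf), 210, 147 and 311 (6 hpf), 43, 40 and 101 (7 hpf), 84, 216 and 102 (8 hpf), and 1, 40 and 0 (9 hpf). The 5 hpf libraries were all above the 9 hpf libraries in both regions, by the means of 306 ± 127 (SD, n = 3) and 73.7 ± 40.5 in AP and of 179 ± 48.5 and 13.7 ± 22.8 in VP. The course between was not steady: the highest mean in VP was at 6 hpf. All 9 pairs of groups that were neighbours in the order of the means overlapped. Here and below, neighbours were found by sorting these same means, which favours overlap, so it describes the spread only.

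The 9 to 5 hpf difference of topbp1.L in VP was the one with the smallest p-value among the 7 entries: -5.33 ± 2.05 (log2, SE; 95% interval -9.36 to -1.31), with a limma p of 0.00956 and an adjusted p of 0.248. In AP it was -2.15 ± 2.05 (adjusted p of 0.861 by limma). The VP difference was -4.65 without replicate 1 (limma p of 0.105), -7.20 without replicate 2 (0.00224) and -4.15 without replicate 3 (0.0925). It rests on VP values of 1, 40 and 0 at 9 hpf, and the means of the 2 times were 13.1-fold apart. As a slope over the 5 times, topbp1.L had -1.15 ± 0.46 per hour in VP (limma p of 0.0128, adjusted p of 0.258) and -0.82 ± 0.32 averaged over both regions (interval -1.45 to -0.18, limma p of 0.0122, adjusted p of 0.147). In experiment 2, technical replicates 4 and 5 of AP read 117 and 146, 95 and 46, 45 and 28, and 63 and 0 from 6 to 9 hpf. VP read 53 and 159, 0 and 0, 93 and 90, and 54 and 153 at the same times. The means at 6 and 9 hpf were 131.5 and 31.5 in AP and 106 and 103.5 in VP. With 2 technical replicates of 1 clutch a side this is a description, and it was not tested.

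ticrr encodes Treslin, which binds TopBP1 when phosphorylated by cyclin-dependent kinase and helps to load Cdc45 onto the helicase. ticrr.L was above 0 in all 30 libraries of experiment 1. Its AP values were 588, 1427 and 347 (5 hpf), 532, 217 and 407 (6 hpf), 443, 756 and 225 (7 hpf), 258, 97 and 465 (8 hpf), and 185, 118 and 143 (9 hpf). Its VP values were 656, 449 and 315 (5 hpf), 306, 109 and 424 (6 hpf), 448, 398 and 530 (7 hpf), 169, 15 and 551 (8 hpf), and 214, 18 and 461 (9 hpf). The group means stood in the same order in both regions, 5, 7, 6, 8 and 9 hpf from high to low, and from 5 to 9 hpf they were 787 ± 567 and 149 ± 33.9 (SD, n = 3) in AP and 473 ± 172 and 231 ± 222 in VP. The AP libraries at 9 hpf were all under those at 5 hpf, the VP libraries overlapped, and so did all 9 neighbours in the order of the 10 means.

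The slope of ticrr.L was close to the same in AP (-0.50 per hour, adjusted p of 0.584 by limma) and VP (-0.48, adjusted p of 0.634). Averaged over regions it was -0.49 ± 0.21 (interval -0.90 to -0.08), with a limma p of 0.0184 and an adjusted p of 0.195. Without replicate 2, which held 1427 in AP at 5 hpf and 15 and 18 in VP at 8 and 9 hpf, it was -0.23 (limma p of 0.0804). Without the VP library of replicate 2 at 8 hpf alone, it was -0.42. The 9 to 5 hpf difference was -2.17 ± 1.32 in AP (adjusted p of 0.656 by limma) and -1.88 ± 1.32 in VP (adjusted p of 0.738). In experiment 2 ticrr.L read 367 and 359, 318 and 262, 189 and 297, and 213 and 277 in AP from 6 to 9 hpf, and 289 and 235, 54 and 0, 166 and 233, and 175 and 60 in VP. The means of that clutch at 6 and 9 hpf were 363 and 245 in AP and 262 and 117.5 in VP, which was not tested.

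ticrr.S, the other copy, had its highest mean at 8 hpf in AP and at 5 hpf in VP. It read 268, 261 and 0 (5 hpf) in AP, 122, 84 and 12 (6 hpf), 200, 0 and 222 (7 hpf), 180, 169 and 269 (8 hpf), and 106, 119 and 225 (9 hpf). In VP it read 143, 371 and 884 (5 hpf), 268, 169 and 51 (6 hpf), 120, 145 and 26 (7 hpf), 115, 346 and 383 (8 hpf), and 119, 54 and 252 (9 hpf). The 0 at 5 hpf in AP and the 884 at 5 hpf in VP are both from replicate 3, and the difference between regions at that time was 3.13 ± 1.81 (log2, VP against AP; limma p of 0.0845, adjusted p of 1). Its averaged slope was 0.16 ± 0.29 per hour (interval -0.40 to 0.72, adjusted p of 0.90 by limma), and neighbours in the order of the 10 means overlapped in 9 of 9 pairs.

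In experiment 2 ticrr.S read 162 and 118, 161 and 128, 89 and 66, and 293 and 65 in AP from 6 to 9 hpf, and 123 and 54, 259 and 739, 76 and 55, and 72 and 83 in VP. The high pair at 7 hpf came from VP libraries with 7306 and 4364 genes above 0, in which ticrr.L read 54 and 0. The share of ticrr.L in the sum of both copies ran from 4.16% to 100% over the libraries of experiment 1, with a median of 63.9%. The sources used here do not say how reads that match both copies were divided, so a value of one copy alone is uncertain.

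recql4 encodes the RecQ4 helicase, whose amino-terminal part is needed to start replication in Xenopus egg extracts. recql4.L in AP read 361, 801 and 412 (5 hpf), 114, 132 and 127 (6 hpf), 286, 0 and 252 (7 hpf), 232, 157 and 331 (8 hpf), and 115, 207 and 56 (9 hpf). In VP it read 328, 254 and 104 (5 hpf), 24, 193 and 267 (6 hpf), 177, 269 and 332 (7 hpf), 263, 248 and 257 (8 hpf), and 62, 281 and 138 (9 hpf). AP at 5 hpf had a mean of 525 ± 241 (SD, n = 3). Its libraries all stood above those of the next group in the order, VP at 7 hpf, with 259 ± 78.0. That pair was picked by sorting these same means, and its groups differ in region and in time. The share of all tested genes with such a gap was not counted, so the gap describes the spread only. The other 8 pairs of neighbours overlapped, and the other AP means lay between 124 and 240.

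The lower AP values after 5 hpf were steepest in the test at 7 hpf, at -3.56 ± 1.58 (log2; limma p of 0.0250, adjusted p of 1), a difference that rests on replicate 2, listed at 0 at 7 hpf: without it the difference was -0.52. At 9 hpf the difference from 5 hpf was -2.15 ± 1.58 in AP (adjusted p of 0.779 by limma) and -0.61 ± 1.58 in VP. The averaged slope was -0.17 ± 0.25 per hour (interval -0.66 to 0.32, adjusted p of 0.872 by limma). In experiment 2 recql4.L read 278 and 269, 354 and 347, 232 and 184, and 124 and 195 in AP, and 339 and 347, 0 and 0, 247 and 319, and 193 and 347 in VP. Its AP means from 6 to 9 hpf in that clutch were 273.5, 350.5, 208 and 159.5. In VP the values at 9 hpf spanned those at 6 and 8 hpf. That is 1 clutch with technical replicates, and it was not tested.

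dbf4b encodes Drf1, the regulatory subunit that in early Xenopus embryos is the main partner of the Cdc7 kinase, which phosphorylates the helicase at origins. dbf4b.L was above 0 in all 30 libraries of experiment 1 and had the least spread of the 7, with a median coefficient of variation within groups of 41.9%, against 133% for chek1.S and 64.9% for tested genes with a mean of at least 100. In AP it read 303, 476 and 215 (5 hpf), 255, 474 and 469 (6 hpf), 315, 1220 and 339 (7 hpf), 284, 169 and 410 (8 hpf), and 144, 153 and 290 (9 hpf). In VP it read 293, 275 and 60 (5 hpf), 353, 31 and 55 (6 hpf), 259, 186 and 415 (7 hpf), 261, 645 and 343 (8 hpf), and 190, 130 and 229 (9 hpf). The 5 and 9 hpf libraries overlapped in both regions, and the highest means were at 7 hpf in AP, through replicate 2, and at 8 hpf in VP.

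The averaged slope of dbf4b.L was 0.01 ± 0.21 per hour (interval -0.40 to 0.43, adjusted p of 0.99 by limma). From 5 to 9 hpf the fitted difference was -0.76 ± 1.35 in AP and 0.07 ± 1.35 in VP. In experiment 2 it read 199 and 134, 261 and 223, 293 and 219, and 118 and 73 in AP, and 331 and 242, 228 and 0, 144 and 287, and 318 and 111 in VP. The AP means of that clutch from 6 to 9 hpf were 166.5, 242, 256 and 95.5, which was not tested.

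chek1 encodes Chk1, the kinase that ATR activates when replication stalls. chek1.L read 54, 115 and 119 (5 hpf) in AP, 76, 42 and 162 (6 hpf), 62, 289 and 31 (7 hpf), 29, 0 and 19 (8 hpf), and 81, 101 and 26 (9 hpf). In VP it read 223, 87 and 8 (5 hpf), 99, 312 and 81 (6 hpf), 54, 276 and 311 (7 hpf), 59, 0 and 144 (8 hpf), and 55, 82 and 625 (9 hpf). All neighbouring groups overlapped, and the highest mean, 254 ± 322 (SD, n = 3) in VP at 9 hpf, rested on replicate 3. The averaged slope was -0.22 ± 0.33 per hour (interval -0.86 to 0.42, adjusted p of 0.868 by limma).

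chek1.S was the entry with the most values at 0, 8 of 30 in experiment 1. It read 69, 505 and 0 (5 hpf) in AP, 180, 115 and 135 (6 hpf), 56, 270 and 0 (7 hpf), 59, 144 and 19 (8 hpf), and 85, 0 and 0 (9 hpf). In VP it read 141, 160 and 640 (5 hpf), 24, 0 and 338 (6 hpf), 132, 23 and 345 (7 hpf), 51, 0 and 274 (8 hpf), and 374, 0 and 0 (9 hpf). At 9 hpf 2 of 3 libraries were at 0 in each region, beside 85 in AP and 374 in VP, and the 5 and 9 hpf libraries overlapped. The difference from 5 hpf in VP was -5.08 ± 2.36 (log2; limma p of 0.0320, adjusted p of 0.465), and the averaged slope was -0.85 ± 0.37 per hour (interval -1.59 to -0.12, limma p of 0.0230, adjusted p of 0.222). The VP difference was -2.96 without replicate 3 (limma p of 0.289) and -8.33 without replicate 1 (0.0115), and the slope was -0.47 without replicate 2 (0.265) and -1.35 without replicate 1 (0.00954).

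In experiment 2 chek1.L was lower in AP than in VP at 6, 8 and 9 hpf by the mean of both technical replicates: AP read 66 and 45, 54 and 44, 57 and 35, and 88 and 16 from 6 to 9 hpf, and VP read 109 and 129, 0 and 0, 110 and 131, and 65 and 101. The VP libraries lay above the AP libraries at 6 and 8 hpf, as did those of 3 of the 7 entries (recql4.L and both chek1 copies) and of 3.81% of the tested genes, and overlapped with them at 9 hpf. chek1.S read 42 and 61, 61 and 93, 27 and 26, and 11 and 32 in AP, and 95 and 86, 448 and 0, 50 and 61, and 79 and 83 in VP. It too read higher in VP than in AP at 6, 8 and 9 hpf in that clutch, without overlap, as did 1 of the 7 entries and 2.18% of the tested genes. These sets of times are those at which the chek1 copies separated, so the shares do not measure how unusual the entries are. The 7 hpf libraries were left out of them. There chek1.L read lower in VP (0 and 0) than in AP (54 and 44), and the VP values of chek1.S (448 and 0) spanned those of AP. That is 1 clutch with technical replicates and was not tested. In experiment 1 the difference averaged over 5 times was 0.71 ± 0.92 for chek1.L and 0.33 ± 1.06 for chek1.S (adjusted p of 0.828 and 0.937 by limma). Of the sum of both copies, chek1.L held from 0% to 100% across the libraries of experiment 1, and both were at 0 in 1 library.

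Set against all genes, the lower values at 9 hpf stood as follows. In AP, 3 of the 7 entries, topbp1.L, ticrr.L and recql4.L, had every 9 hpf library under every 5 hpf library, as had 4.23% of the 19896 tested genes. In VP it was 1 of 7, topbp1.L, against 4.77% of the tested genes. A gene at 0 in a 5 hpf library of a region cannot meet this rule there. Of the 19896 tested genes, 3852 were above 0 in all 6 libraries at 5 hpf, against 5 of the 7 entries. The shares are therefore not of like genes, and genes of like level were not compared. In neither region did any of the 7 have every 9 hpf library above every 5 hpf library, as had 8.5% of the tested genes in AP and 5.44% in VP. The summed egg coat genes given above also read lower at 9 than at 5 hpf, without overlap in VP and with overlap in AP, and the part of carried-over RNA in the courses of the 7 entries was not tested. By limma, 0 of 7 were called at 9 against 5 hpf in AP (0 at an unadjusted p under 0.05), where 1.72% of all tested genes were called, and 0 of 7 in VP, where 1.25% were. In VP 2 of the 7, topbp1.L and chek1.S, were lower at an unadjusted p under 0.05, as were 3.52% of the tested genes. Against 5 hpf, limma called 0 of 7 at 6, 7 and 8 hpf in AP, with 1, recql4.L at 7 hpf, lower at an unadjusted p under 0.05. Of all tested genes it called 0%, 0.0101% and 0.0653%, and 0.89% were lower at that unadjusted p at 7 hpf. At the same times it called 0 of 7 in VP, with 0 at an unadjusted p under 0.05, and 0.0101%, 0.00503% and 0.00503% of all tested genes.

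For the slope averaged over regions, 0 of 7 were called and 3 had an unadjusted p under 0.05, where limma called 5.39% of all tested genes, 1046 of them higher and 26 lower with time. A negative slope with an unadjusted p under 0.05 was found for 2.99% of the tested genes and for 3 of the 7 entries. The median averaged slope of the 7 was -0.22, against 0.01 for all tested genes, and their median 9 to 5 hpf difference was -2.15 in AP and -1.61 in VP, against 0.41 and -0.24. The tested genes include 1876 at 0 in all 6 libraries at 5 hpf, which could not be lower at 9 hpf, against 0 of the 7 entries. Rescaling the libraries to an equal total moved the median of all genes in AP from 0.41 to 0.27 and that of the 7 entries to -2.41. In the separate slopes limma called 0 of 7 in AP (0 at an unadjusted p under 0.05) and 0 of 7 in VP, where 3.33% and 1.85% of all tested genes were called. The VP slope of 1 of the 7, topbp1.L, was negative at an unadjusted p under 0.05, as was that of 3.72% of the tested genes.

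**Figure D2:**
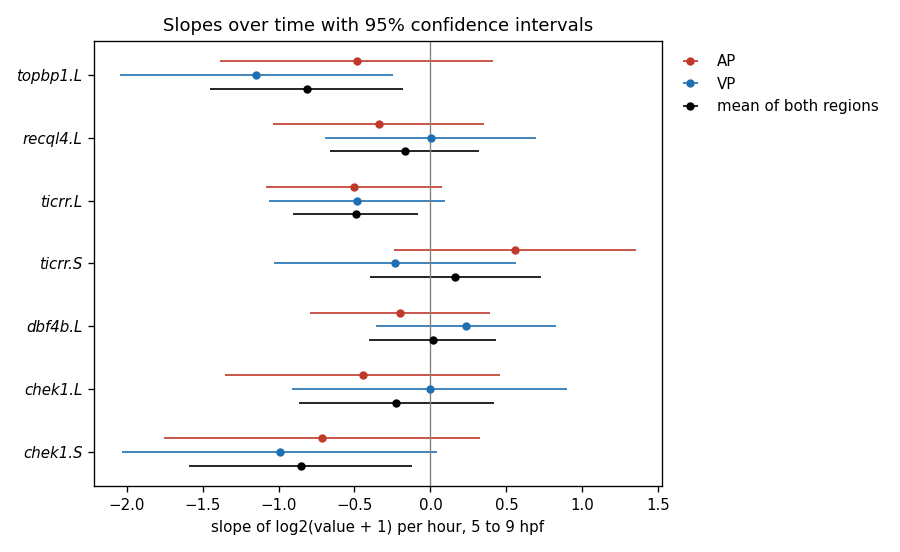
Slopes over 5 to 9 hpf on the log2(value + 1) scale (horizontal axis, per hour) of the 7 entries in AP, in VP and averaged over both, as limma estimates with 95% confidence intervals from the 30 libraries of experiment 1. The averaged intervals of topbp1.L (-1.45 to -0.18), ticrr.L (-0.90 to -0.08) and chek1.S (-1.59 to -0.12) lie under 0 before adjustment for 19896 genes, and none passed after it.

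Between the poles none of the 7 entries passed the test. By limma, 0 of 7 were called in VP against AP at 5, 6, 7, 8 or 9 hpf or averaged over the 5 times, and 0 had an unadjusted p under 0.05 in any of these 6 contrasts. Of all tested genes, limma called 0.0955%, 0.0251%, 0.0101%, 0% and 0.377% at the 5 times and 0.709% in the average. Averaged over time, the difference was -0.05 ± 0.91 for topbp1.L (interval -1.85 to 1.75), -0.45 ± 0.59 for ticrr.L (-1.61 to 0.71) and 1.14 ± 0.81 for ticrr.S (-0.46 to 2.73). It was 0.32 ± 0.71 for recql4.L (-1.08 to 1.71), -0.70 ± 0.60 for dbf4b.L (-1.89 to 0.49), and for the chek1 copies -1.10 to 2.52 (L) and -1.74 to 2.41 (S).

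Those intervals leave room for differences of more than 1 log2 unit in at least one direction for every entry, so the poles are not shown to be alike. The median of the 7 was 0.32, against -0.47 for all tested genes. These medians are not of like genes, and genes of like level were not compared. From 5 to 9 hpf, 37.6%, 53.3%, 39.4%, 47.0% and 43.3% of the values of tested genes were 0 in VP. In AP it was 46.2%, 36.4%, 35.2%, 32.4% and 29.9%. Without overlap of the 3 libraries a side, VP read above AP for topbp1.L at 6 hpf, as for 2.5% of the tested genes, and below AP for recql4.L at 5 hpf, as for 3.15%. The largest difference of topbp1.L was at 9 hpf, at -3.89 ± 2.05 (interval -7.92 to 0.13, limma p of 0.0579, adjusted p of 0.724). The test of whether the change from 5 hpf differed between VP and AP called 0 of 7 entries at 6, 7, 8 and 9 hpf, with 0 at an unadjusted p under 0.05, and limma called 0.00503%, 0%, 0% and 0% of all tested genes. The VP minus AP slope called 0 of 7 as well, with 0 at an unadjusted p under 0.05, and 0% of all tested genes.

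**Figure D3:**
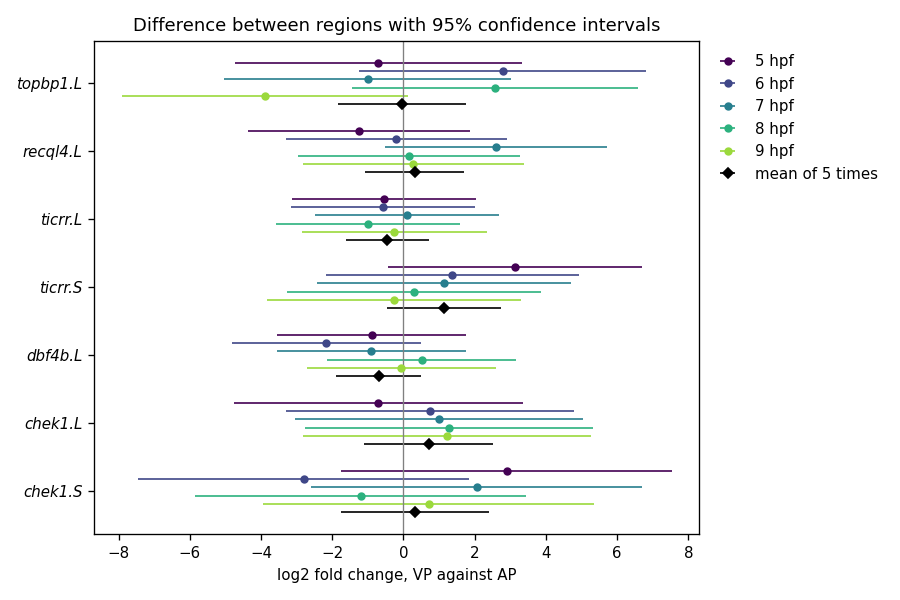
Difference of VP from AP (horizontal axis, log2 fold change) for the 7 entries at each of 5 times and averaged over them (black diamonds), as limma estimates with 95% confidence intervals, n = 3 libraries per region and time in experiment 1. Every interval crosses 0, and the averaged intervals run from -1.89 at the lowest bound to 2.73 at the highest.

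How well single libraries fix these values can be read from zeros and technical repeats. In experiment 1, 15 of 210 values of the 7 entries were 0, or 7.14%, against 9.83% of the values of tested genes with a mean of at least 100. In AP at 8 hpf, replicate 2, where 1 read was worth about 11.96, topbp1.L and chek1.L were at 0 and the 97 of ticrr.L corresponds to about 8.11 reads. In experiment 2, 10 of 112 values were 0, and 9 of these were among the 14 values of VP at 7 hpf. In those 2 libraries 1 read was worth 5.98 and 6.71, so the 448 of chek1.S is about 74.9 reads in one, beside 0 in the other, and the 739 of ticrr.S about 110 reads.

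Technical replicates of experiment 2 gave 56 pairs of values for the 7 entries, of which 7 held a 0 and 6 of those 7 were VP at 7 hpf. Of the 49 pairs outside VP at 7 hpf, 39 differed by less than 2-fold. Over the 48 of these 49 without a 0, the median ratio of the higher to the lower value was 1.37 and the highest was 5.5. The pair with a 0, topbp1.L in AP at 9 hpf with 63 and 0, has no ratio. The libraries of these 49 pairs had 15051 to 21140 genes above 0, against 4137 to 18199 in the tested libraries of experiment 1. The ratios therefore do not measure the precision of the sparser libraries of experiment 1, which had no technical replicates.

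**Figure D4:**
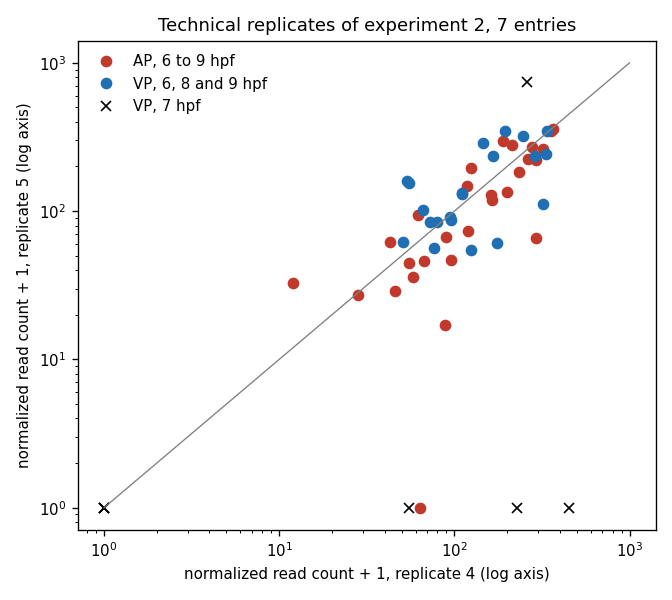
Normalized read count + 1 of the 7 entries in technical replicate 5 against replicate 4 of experiment 2 (both axes logarithmic), 1 point per entry, region and time, with the line of equal values. Crosses are VP at 7 hpf, where 6 of 7 pairs hold a 0 and several lie on each other at the lower left; the other pairs with 2 values above 0 lie within 5.5-fold of each other.

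The rest of the replication machinery was read in 4 lists of genes, 91 tested entries in all. They were origin licensing (24 entries, such as ORC, Cdc6, Cdt1 and the MCM helicase), origin firing (17, such as Cdc45, GINS, Cdc7 and the leading-strand polymerase), the fork (29, such as the other replicative polymerases, PCNA and RFC) and the checkpoint (21, such as ATR, claspin and Wee1). limma called 0 of the 91 in VP against AP, in each later time against 5 hpf and in the interaction, with 2 to 8 per contrast at an unadjusted p under 0.05. That is at most 8.79% of the 91, against 2.43% to 10.3% of all tested genes. It called 3 entries in the slopes, all rising: zmcm3.L in licensing, rfc5.L among the fork genes and wee1.L in the checkpoint list, and none in the firing list, to which topbp1, ticrr, recql4 and dbf4b belong by function and in which 0 of 17 slopes reached an unadjusted p under 0.05. These calls were 2 of 91 for the averaged slope, 1 in AP and 1 in VP, where 5.39%, 3.33% and 1.85% of all tested genes were called. Calls in the lists were thus not more frequent than among all genes, most of whose calls rose as well.

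zmcm3 is the zygotic form of the helicase subunit Mcm3, which takes the place of a maternal form in frog embryos. zmcm3.L read 16, 0 and 0 in AP at 5 hpf and 62, 337 and 354 (9 hpf), and 0, 0 and 0 in VP at 5 hpf and 307, 114 and 298 (9 hpf). Its slope was 1.65 ± 0.38 per hour averaged over regions (adjusted p of 0.000871 by limma) and 1.78 ± 0.53 in VP (adjusted p of 0.0490). In experiment 2 it read 4 and 0 (6 hpf) and 677 and 501 (9 hpf) in AP, and 0 and 0 (6 hpf) and 458 and 244 (9 hpf) in VP. In either experiment and region, every 9 hpf library was above every library of the first time. In experiment 1 this held for 8.5% of the tested genes in AP and 5.44% in VP, and in experiment 2 no such share was counted. zmcm3.L was named for its slope in the same libraries of experiment 1, which favours separation there.

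wee1 encodes a kinase that holds Cdk1 inactive and so, like Chk1, delays mitosis. wee1.L read 33, 15 and 0 in AP at 5 hpf and 22, 180 and 376 (9 hpf), and 0, 44 and 0 in VP at 5 hpf and 578, 332 and 502 (9 hpf), with an averaged slope of 1.38 ± 0.36 per hour (adjusted p of 0.00528 by limma). The VP times did not overlap, with 9 hpf higher as for 5.44% of the tested genes, and the AP times did. wee1.L too was named for its slope in these libraries. rfc5, a subunit of the clamp loader, rose in AP by slope only: rfc5.L read 0, 0 and 0 (5 hpf), 22, 276 and 20 (8 hpf) and 19, 27 and 248 (9 hpf) (1.63 ± 0.47 per hour, adjusted p of 0.0235 by limma). Its highest value at 8 and at 9 hpf came from 1 replicate each, and in experiment 2 it read 35 and 17 at 6 hpf and 2 and 0 at 9 hpf in AP. By limma, the call of rfc5.L was lost without replicate 1, 2 or 3 (adjusted p of 0.0616, 0.237 and 0.408). That of wee1.L was lost without replicate 1 or 3 (0.0557 and 0.307), that of zmcm3.L in VP without replicate 1 or 3 (0.606 and 0.461), and that of zmcm3.L averaged over regions without replicate 3 (0.0931). Over all the alternatives listed below, zmcm3.L in VP and rfc5.L in AP were each called in 8 of 14. The averaged slope was called in 11 of 13 for wee1.L and in 12 of 13 for zmcm3.L.

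The median averaged slope was -0.11 in licensing, -0.09 in firing, -0.16 at the fork and -0.06 in the checkpoint list, and 64.8% of the 91 entries had a negative one, against 5 of the 7 entries described here and 48.9% of all tested genes. At an unadjusted p under 0.05, limma found 4 of the 91 averaged slopes positive and 4 negative. All 4 medians lay nearer to 0 than the -0.22 of the 7, but for the VP slope the fork list had a median of -0.34 and the 7 one of -0.23. These differences were not tested.

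**Figure D5:**
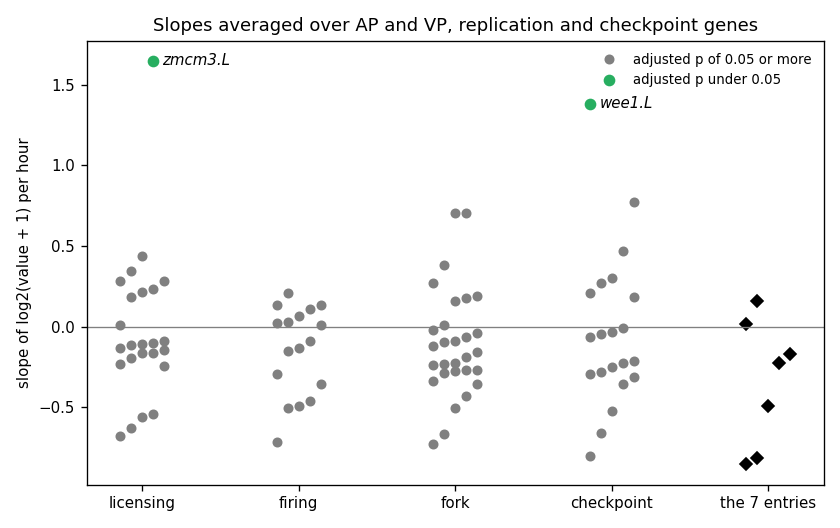
Slopes on the log2(value + 1) scale per hour, averaged over AP and VP, of 91 tested entries in 4 lists of replication and checkpoint genes and of the 7 entries (black diamonds), with 1 point per entry, spread sideways only to keep them apart. The called entries zmcm3.L (1.65) and wee1.L (1.38) stand at the top, and the lowest of the 7 are chek1.S (-0.85) and topbp1.L (-0.82).

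Likeness of course across the 10 groups of experiment 1 was measured as Pearson's r of log2(group mean + 1), with both copies of a gene summed, against 5976 other tested entries with a mean of at least 100. The groups share libraries between genes, so the values are a description. Most like topbp1 were tle1.L (0.945) and spcs3.S (0.935), most like ticrr LOC108701719 (0.946) and fem1c.L (0.908), and most like recql4 st3gal2.1.L (0.946) and rnd3.L (0.917). For dbf4b they were ide.L (0.904) and gxylt1.L (0.881), and for chek1 srp68.S (0.940) and rbpms2.L (0.921). Each was picked as the highest of 5976 values over only 10 groups, so a high r follows from the choice. The 99th percentile of r was 0.805 for topbp1, 0.769 for ticrr, 0.716 for recql4, 0.720 for dbf4b and 0.771 for chek1. Among the 7 entries themselves r was highest between ticrr.L and chek1.S (0.774) and next between recql4.L and ticrr.L (0.666), while chek1.L had an r between -0.29 and 0.39 with the others and the ticrr copies an r of 0.0014 with each other.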

How the data were processed

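The authors used Salmon 0.12.0 for quantification and DESeq2 for normalization, per the submitters' processing notes, with the version of DESeq2, the genome build and the annotation not given in the sources used here. Their deposited table holds 50489 entries and 46 libraries, whose values are whole numbers, treated as a score: the deposited scores are normalized and rounded read counts, since recomputed median-ratio factors (526 genes above 0 throughout) were 1.012 to 1.136. The 1256 entries sharing a name with another were summed with it. No count test was run.

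The log2(value + 1) of each gene was fitted in limma 3.58.1 (R 4.3.3, with the package data.table at 1.17.8) with 1 coefficient per region and time of experiment 1, a mean trend and robust settings, two-sided, and Benjamini-Hochberg adjustment within each contrast, after testing on simulated data. The added 1 shrinks the fold change of low genes, but libraries at 0 or 1 can make a fitted difference larger than that of the means. For chek1.S in VP the means of 5 and 9 hpf were 314 and 125, or 2.52-fold apart, while the fitted log2 difference was -5.08. The replicates of experiment 1 are 3 clutches, and nothing in the labels ties a replicate number to 1 clutch across regions and times. Experiment 2 was not tested. Tables and figures were made in Python 3.11.15 with numpy 2.4.6, pandas 2.3.3 and matplotlib 3.10.9.

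Every entry of the 5 genes is named. Of the listed replication and checkpoint genes, those called at an adjusted p under 0.05 are named, and the 2 entries most like each gene. The genes, lists and tests were chosen with earlier results of these data known. RefSeq names were used without coordinates, since the build of the table is not stated. The alternatives were 2 rescalings, 2 filters, 2 pseudocounts, a replicate block, experiment 2 added, only the groups compared, each replicate left out, genes above 0 as a covariate, 1 sparse library left out, and both copies summed.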

Additional observations from a re-analysis of the deposited data

How the results depend on the processing

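Under 15 other ways of processing, limma called 0 of 2245 tests of the 7 entries or, with copies summed, of the 5 genes. The 7 results with an unadjusted p under 0.05 kept their sign under the 14 alternatives that gave a value for single regions and the 13 for averaged slopes; summed copies gave none for single entries. The smallest adjusted p was 0.0517, for the AP slope of ticrr.L with only the compared groups in the model, then 0.0543 for its averaged slope without the VP library at 8 hpf with 4137 genes above 0. The topbp1.L difference of 9 from 5 hpf in VP ranged from -7.20 to -4.02 (adjusted p 0.107 to 0.903), its averaged slope from -0.90 to -0.66, and that of ticrr.L from -0.72 to -0.23. The chek1.S slope ranged from -1.35 to -0.47, its VP difference from -8.33 to -2.96, and the recql4.L difference of 7 from 5 hpf in AP from -5.18 to -0.52. Calls among the replication and checkpoint lists, 4 in all, became 9 with a pseudocount of 5, 8 with experiment 2 added, 7 with genes above 0 as a covariate, 7 without that VP library, and 0 with only the groups compared, where averaged contrasts have no value, and 2 to 6 with 1 replicate left out; the cause was not tested. Equal replicate numbers did not meet the criterion for pairing, a correlation over 0.1 in every pair: residual correlations of AP and VP libraries of 1 time were -0.024 to 0.103 for equal numbers (15 pairs) and -0.113 to 0.078 for unequal ones (30 pairs). Between times, equal numbers reached 0.222 (median 0.027, 120 pairs) and unequal ones 0.082 (median -0.013, 240 pairs). With the replicate block, 0 of the 7 entries and 4 list results were called. Sparse libraries, 3 clutches and values at 0 limit what could be detected.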
